A study of Drosophila melanogaster with 9 samples.

Results

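The transcripts described here came from 50 loci that were assembled from the RNA-seq reads of Drosophila wing discs and whose annotation names a retrotransposon, a transposon or one of their proteins. They stood beside 155 other assembled loci in a table of 14168 genes and loci. Loci were selected on the text of their symbol and description, which had to name copia, blastopia, gypsy, a polyprotein, RNase H, a retrovirus, a reverse transcriptase, an integrase, gag, pol or a term beginning with transpos. That choice also rested on measured values, because a locus is assembled only where reads of these same libraries cover it, and the wording was written with earlier results of these data known. Counts over the 50 loci are therefore descriptions. The best protein hit was a Drosophila melanogaster protein for 35 loci and a protein of another species for 15. Ordered by what the hit names, or for jockey the symbol, 16 loci were Ty3/gypsy-type, 4 Ty1/copia-type, 4 jockey-type (by symbol only) and 7 DNA transposons (6 of them named only as a transposase). The remaining 19 are annotated as a polyprotein, pol, reverse transcriptase, RNase H or gag and were not placed, as their hits name no element. Their symbols were not used, though some are shared with placed loci. MSTRG.6102 carries TY3B-G, as the Ty3-G and Ty3-I loci do. MSTRG.1658, MSTRG.1906, MSTRG.1919, MSTRG.1920, MSTRG.1945 and MSTRG.10478 carry GIP, as the copia loci do.

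Retrotransposons copy themselves through an RNA that is reverse transcribed and inserted elsewhere in the genome. In those with long terminal repeats (LTRs), such as copia and the gypsy group, gag encodes the particle protein and pol the protease, reverse transcriptase, RNase H and integrase, and some members of the gypsy group also carry an env gene. Jockey belongs to the group without LTRs, and DNA transposons move as DNA through a transposase. Flies hold these elements down with small RNAs. The siRNA pathway acts in somatic cells, and the piRNA pathway acts mainly in the gonad.

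The mRNA of wing discs, the larval epithelia that form the adult wing, was sequenced at the third larval instar, with 3 biological replicates per genotype and 100 discs per extraction. In the NAT10 and Xrp1 double knockdown (en-GAL4 > UAS-NAT10-RNAi,Xrp1-RNAi), the engrailed driver directed RNA interference at NAT10, which acetylates cytidines in RNA, and at Xrp1, a transcription factor of the response to ribosomal stress. In the NAT10 knockdown (en-GAL4 > UAS-NAT10-RNAi) it targeted NAT10 alone, and the control (en-GAL4>+) carried the driver without an interference construct. Stocks were kept at 25 °C, and the control's columns are named for w1118, a common laboratory strain. The study asked how far the changes caused by NAT10 knockdown depend on Xrp1. Engrailed is expressed in the posterior compartment, so each whole-disc library mixes targeted and untargeted cells, and fewer cells of a type cannot be told apart from less RNA per cell. The labels do not say whether the parental stocks carry the same insertions, so a difference in insertions between stocks cannot be told apart from an effect of the interference.

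Libraries held 14183856 to 19949448 estimated counts. Levels are given as normalised CPM (counts scaled to a common library size with TMM factors), and log2 fold changes ± SE come from 1 fit of the 9 libraries by edgeR's quasi-likelihood test. The SE was worked back from that test, as the size of the log2 fold change divided by the square root of its F statistic. A call is an adjusted p (Benjamini-Hochberg, over the 8487 entries that passed the filter on low counts) below 0.05. NAT10 is listed under the fly symbol l(1)G0020 and was lower in both knockdowns, with log2 fold changes against control of -0.44 ± 0.041 in the double knockdown and -0.70 ± 0.042 in the NAT10 knockdown (adjusted p = 2.38e-09 and 6.2e-14). Xrp1 had log2 fold changes against control of -0.35 ± 0.028 in the double knockdown and 0.85 ± 0.028 in the NAT10 knockdown (adjusted p = 1.81e-10 and 1.29e-19). NAT10 was higher in the double than in the NAT10 knockdown (log2 0.26 ± 0.042, adjusted p = 7.11e-06). Comparisons between the knockdowns therefore differ in NAT10 RNA as well as in Xrp1, and the part of each was not tested.

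Transposon transcripts made up a far larger share of the libraries in the NAT10 knockdown than in the other genotypes. Together the 50 loci took 0.497%, 0.494% and 0.479% of all counts in the double knockdown, 3.09%, 2.96% and 3.09% of them in the NAT10 knockdown, and 0.436%, 0.405% and 0.412% in control. The 3 NAT10 knockdown libraries were far above the 6 others, and the double knockdown libraries lay just above those of control with no overlap. In normalised CPM the summed level was 4858 ± 61.0 in the double knockdown, 30488 ± 658 in the NAT10 knockdown and 4215 ± 177 in control (SD, n = 3 each). The sum was thus 1.15 times control in the double knockdown and 7.23 times control in the NAT10 knockdown. These sums carry no test. Most of the signal came from a few loci, since copia supplied 60.0% of the summed CPM in the double knockdown, 75.4% in the NAT10 knockdown and 56.9% in control, and the single blastopia locus supplied 10.5%, 15.02% and 13.1% in the same order of genotypes.

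**Figure D1:**
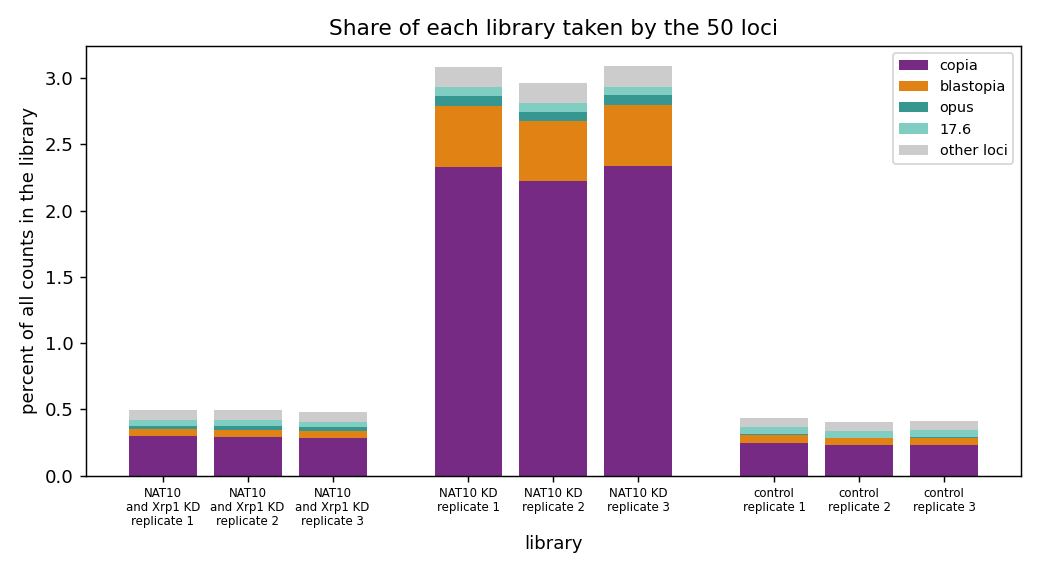
Share of all estimated counts (percent, y axis) taken by the 50 loci in each of the 9 libraries (x axis), stacked by element. The 3 NAT10 knockdown libraries reach 2.96% to 3.09%, against 0.479% to 0.497% in the double knockdown and 0.405% to 0.436% in control, and copia is the largest segment in every library.

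Of the 50 loci, 47 passed the filter on low counts. A locus that passed through the genotype in which it is high had to differ. The counts that follow, and the p-values of such loci, are therefore descriptions of the loci that passed, not of all 50. In the NAT10 knockdown against control 34 of the 47 were called higher, where 32.5% of all genes and loci tested were, and 3 were called lower, where 29.6% of all were. The median log2 fold change of the 47 was 1.247, against 0.03 over all 8487 and 0.25 over the other 120 assembled loci tested. At least 2-fold higher calls numbered 24, against 6.73% of everything tested. Of the 120 other assembled loci tested, 51 were called higher, 24 lower and 32 at least 2-fold higher, so such calls were not particular to the transposon loci. Libraries of the NAT10 knockdown and control did not overlap for 38 of the 47, where the share over all tested was 65.6%.

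The double knockdown had a different balance. Against control 17 of the 47 loci were called higher (15.7% of everything tested was) and 11 lower (15.5%), with a median log2 fold change of 0.15 for the loci and 0.00 over all tested. Set against the NAT10 knockdown, 4 were called higher (28.4% of everything tested) and 34 lower (28.3%). Here 26 loci were lower by at least 2-fold, against 4.81% of everything tested, and the knockdowns had no overlapping libraries at 39 of the 47, against 63% of everything tested. The median log2 fold change was -1.39 for the loci and -0.01 over all tested. Of the 120 other assembled loci tested, 22 were called higher, 53 lower and 32 lower by at least 2-fold in the double over the NAT10 knockdown. In the double knockdown against control 21 of those 120 were called higher and 20 lower. The 3 comparisons share their libraries, so they are not independent of each other.

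**Figure D2:**
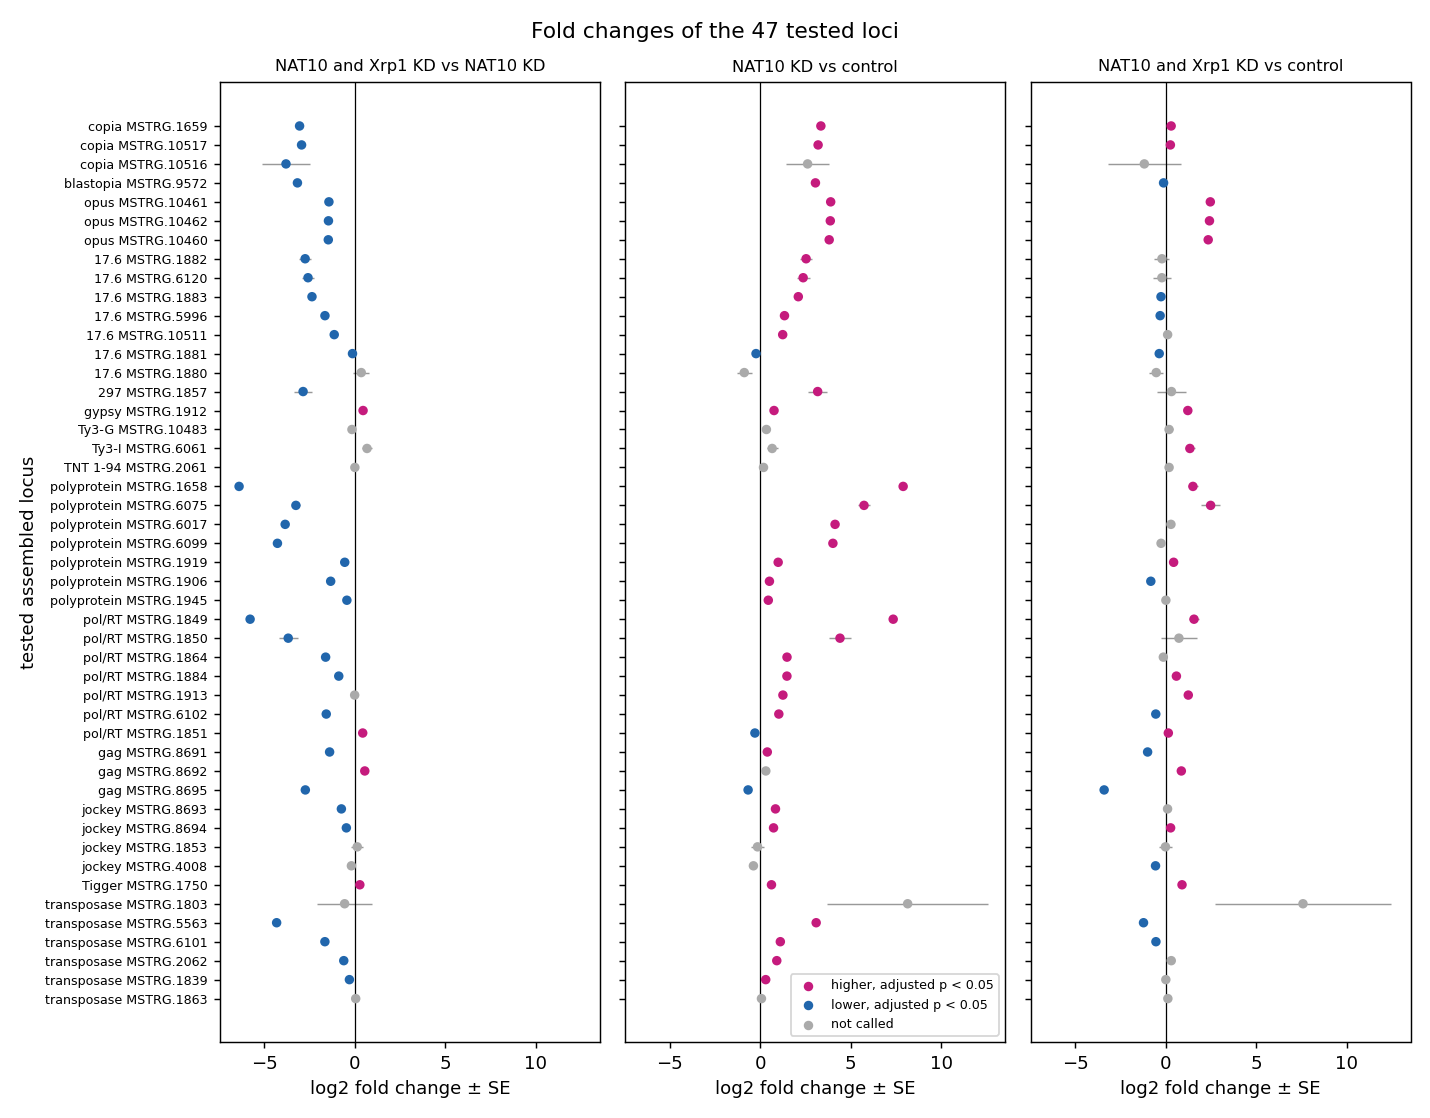
Log2 fold change ± SE (x axis) of the 47 tested loci (rows, ordered by element or protein hit) for the double over the NAT10 knockdown, the NAT10 knockdown over control, and the double knockdown over control, with colour for the call. MSTRG.1803 is at 0 counts in control, so its values against control depend on the fit and give no size. The middle panel holds 34 loci called higher and 3 lower, and the left panel 4 called higher and 34 lower.

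Copia, the element that gave the Ty1/copia group its name, was the most abundant transposon transcript in each genotype. Locus MSTRG.10517 had 1860, 1822 and 1804 CPM in the double knockdown, 14241, 13573 and 14190 CPM in the NAT10 knockdown, and 1606, 1467 and 1486 CPM in control. No libraries of different genotypes overlapped, and the NAT10 knockdown stood 9.21-fold above control (log2 3.20 ± 0.032, adjusted p = 6.83e-29). In the double knockdown it was 1.20-fold above control (log2 0.27 ± 0.030, adjusted p = 1.52e-07) and 2.94 ± 0.032 lower than the NAT10 knockdown on the log2 scale (log2 -2.94, adjusted p = 3.72e-28). Per length, as mean FPKM, this locus ranked 158th of the 14168 entries in the double knockdown at 436 ± 9.47 FPKM, 13th in the NAT10 knockdown at 3305 ± 94.7 FPKM, and 193rd in control at 356 ± 16.5 FPKM (SD, n = 3 each).

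A second copia locus, MSTRG.1659, followed the same order. It had 1099, 1091 and 1076 CPM in the double knockdown, 9073, 8768 and 9142 CPM in the NAT10 knockdown, and 923, 844 and 867 CPM in control. The double knockdown again lay slightly above control without overlap, at 1.24-fold (log2 0.31 ± 0.029, adjusted p = 2.66e-09), and the NAT10 knockdown was 10.2-fold above control (log2 3.36 ± 0.031, adjusted p = 1.78e-31). The third copia locus, MSTRG.10516, stayed at or below 2.12 CPM in every library. Summed over the 3 loci, copia took 0.294% ± 0.0059 of all counts in the double knockdown, 2.30% ± 0.062 in the NAT10 knockdown and 0.238% ± 0.011 in control (SD, n = 3 each). The other Ty1/copia-type locus, MSTRG.2061, whose best hit is the element TNT 1-94 of a nematode entry, was called in no comparison and averaged 6.31, 6.26 and 5.48 CPM in the double knockdown, the NAT10 knockdown and control.

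**Figure D3:**
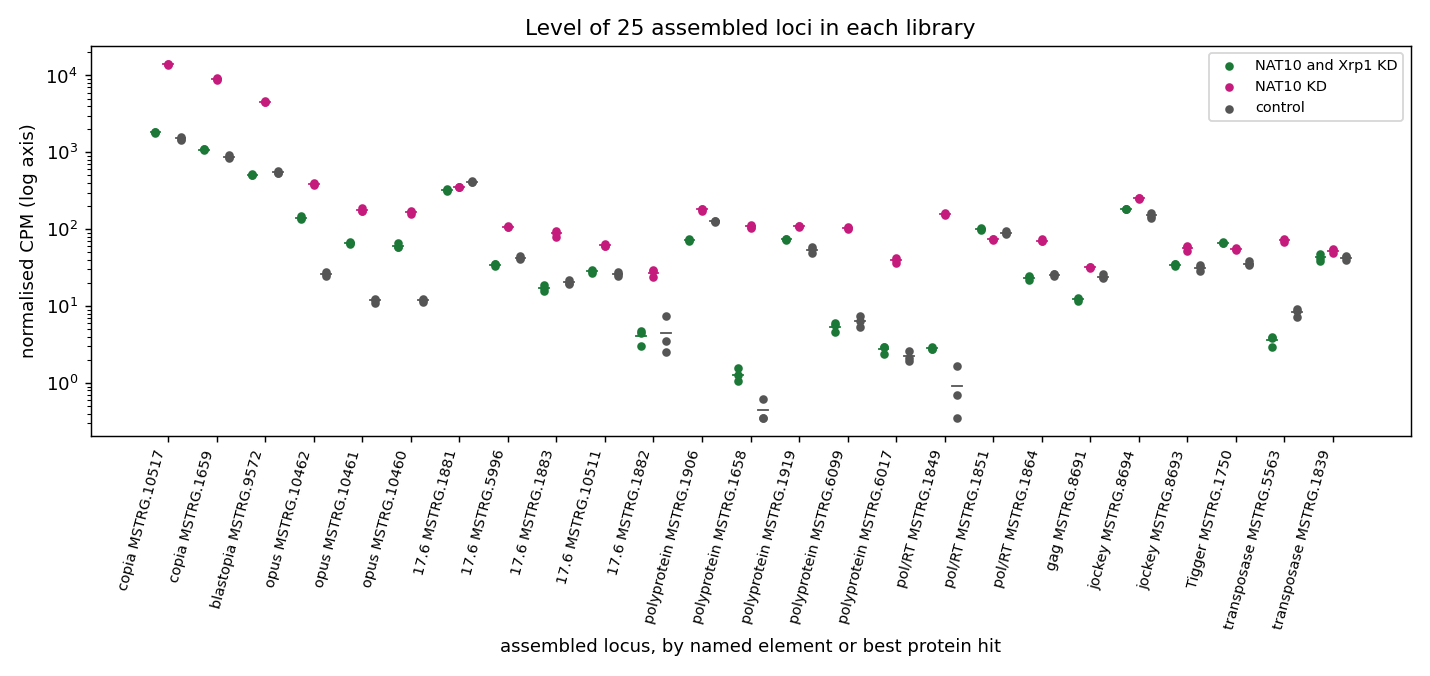
Normalised CPM (y axis, log scale) in each library of the 25 loci named by the rule on level and fold change (x axis), with the double knockdown, the NAT10 knockdown and control from left to right and a bar at each mean. The copia loci and blastopia stand highest in the NAT10 knockdown, the opus loci fall between the NAT10 knockdown and control in the double knockdown, and 17.6 locus MSTRG.1881 lies slightly below control in both knockdowns.

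Blastopia, an LTR element of the gypsy group, was represented by locus MSTRG.9572. Its libraries held 514, 517 and 501 CPM in the double knockdown, 4652, 4502 and 4584 CPM in the NAT10 knockdown, and 577, 532 and 543 CPM in control. The NAT10 knockdown was 8.32-fold above control (log2 3.06 ± 0.030, adjusted p = 5.8e-31). Unlike copia, the locus was slightly lower in the double knockdown than in control (log2 -0.11 ± 0.029, adjusted p = 0.00416). Its mean FPKM ranked 806th in the double knockdown, 111th in the NAT10 knockdown and 751st in control.

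The opus loci were higher than control in both knockdowns. One of them, MSTRG.10460, matches the gag protein of opus, a gypsy-group element, and the loci MSTRG.10461 and MSTRG.10462 match its pol protein. MSTRG.10462 had 139, 150 and 136 CPM in the double knockdown, 400.3, 390.2 and 372 CPM in the NAT10 knockdown, and 28.0, 24.6 and 26.2 CPM in control. All 3 genotypes were separate, with the double knockdown 5.38-fold and the NAT10 knockdown 14.7-fold above control (log2 2.43 ± 0.049 and 3.88 ± 0.047, adjusted p = 3.69e-22 and 1.81e-27). The gag locus had log2 fold changes against control of 2.36 ± 0.065 in the double knockdown and 3.82 ± 0.059 in the NAT10 knockdown, and the other pol locus had 2.47 ± 0.061 and 3.90 ± 0.056. Against the NAT10 knockdown the double knockdown was lower by 1.42 to 1.46 on the log2 scale at the 3 loci (log2 -1.42 ± 0.042 for MSTRG.10461, -1.45 ± 0.037 for MSTRG.10462 and -1.46 ± 0.045 for MSTRG.10460). The last locus with an opus hit, MSTRG.5316, was not tested, as it had at most 4.59 counts in any library.

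The 7 loci that name 17.6, another gypsy-group element, did not move together. MSTRG.1881, the largest contributor, had 332, 326 and 319 CPM in the double knockdown, 354, 351 and 357 CPM in the NAT10 knockdown, and 427, 410 and 406 CPM in control. It was lower than control in both knockdowns (log2 -0.35 ± 0.027 and -0.23 ± 0.027, adjusted p = 7.32e-11 and 4.52e-08). The test deposited by the authors passed neither difference at an FDR below 0.05. By contrast MSTRG.1883, a match to the env protein of 17.6, had 18.6, 16.97 and 15.9 CPM in the double knockdown, 90.2, 80.2 and 93.99 CPM in the NAT10 knockdown, and 21.6, 19.4 and 20.1 CPM in control. This is a 4.31-fold higher level in the NAT10 knockdown than in control (log2 2.11 ± 0.067, adjusted p = 1.14e-19). In the double knockdown it was lower than control (log2 -0.25 ± 0.080, adjusted p = 0.0171), and that call is lost without control replicate 1 (adjusted p = 0.0773) or without double knockdown replicate 3 (adjusted p = 0.0937).

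Other 17.6 loci resembled MSTRG.1883 in the NAT10 knockdown. MSTRG.5996 averaged 34.5 CPM in the double knockdown, 108 CPM in the NAT10 knockdown and 42.4 CPM in control, with a log2 fold change against control of 1.35 ± 0.048 in the NAT10 knockdown (adjusted p = 1.13e-18). The env-type locus MSTRG.10511 averaged 28.3, 62.1 and 26.1 CPM in the same order, with 1.247 ± 0.060 (adjusted p = 7.68e-16). MSTRG.1882 had 3.01, 4.78 and 4.46 CPM in the double knockdown, 29.3, 28.4 and 23.9 CPM in the NAT10 knockdown, and 7.52, 2.55 and 3.51 CPM in control, so the double knockdown and control overlapped. Its log2 fold change in the NAT10 knockdown against control was 2.54, and 3.14 without control replicate 1. MSTRG.6120, an env hit, averaged 0.554, 3.33 and 0.669 CPM in the double knockdown, the NAT10 knockdown and control, and was called higher in the NAT10 knockdown than in control (log2 2.38 ± 0.357, adjusted p = 2.93e-06). MSTRG.1880, a gag hit, averaged 0.858, 0.674 and 1.20 CPM in the same order and was called in no comparison, though it was called lower in the NAT10 knockdown than in control without control replicate 2 (adjusted p = 0.0285) or without NAT10 knockdown replicate 2 (adjusted p = 0.0286). In all, 5 of the 7 loci were called higher and 1 lower in the NAT10 knockdown against control, where 32.5% and 29.6% of everything tested were. Because MSTRG.1881 weighs most in CPM, the summed level of 17.6 was 1.26 times control in the NAT10 knockdown as CPM, but 2.03 times control as FPKM, which scales each locus by its length.

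Single loci matched other gypsy-group elements. MSTRG.1912, a match to gypsy from another insect, had 6.17, 6.70 and 7.52 CPM in the double knockdown, 4.35, 5.01 and 5.44 CPM in the NAT10 knockdown, and 2.68, 3.05 and 2.99 CPM in control, and its level was higher than control in both knockdowns (adjusted p = 7.2e-07 and 0.000278). MSTRG.6061, with a Ty3-I hit, was called higher in the double knockdown than in control (log2 1.35 ± 0.286, adjusted p = 0.0114) and not in the NAT10 knockdown (0.66 ± 0.308, adjusted p = 0.103), where it passed without control replicate 1 (log2 0.34, adjusted p = 0.0357). MSTRG.10483, with a Ty3-G hit, was called in no comparison, and passed as higher in the NAT10 knockdown than in control only without control replicate 2 (adjusted p = 0.0177). MSTRG.1857, with a hit to element 297, averaged 0.157 CPM in the double knockdown, 1.17 CPM in the NAT10 knockdown and 0.124 CPM in control, close to the level of a few counts in the double knockdown and control.

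Among the loci called higher in the NAT10 knockdown than in control, the largest fold changes were at loci whose hits name only a polyprotein, a gag-pol protein or a reverse transcriptase. MSTRG.1658 matches part of a polyprotein of Drosophila willistoni and had 1.56, 1.26 and 1.05 CPM in the double knockdown, 104, 108 and 114 CPM in the NAT10 knockdown, and 0.613, 0.355 and 0.351 CPM in control. Near background in control, it was 239-fold higher in the NAT10 knockdown (log2 7.90 ± 0.120, adjusted p = 6.64e-27) and 2.85-fold higher in the double knockdown (log2 1.51 ± 0.290, adjusted p = 0.000193). MSTRG.1849, annotated as a reverse transcriptase, the enzyme that copies RNA into DNA, had 2.96, 2.80 and 2.81 CPM in the double knockdown, 163, 153 and 156 CPM in the NAT10 knockdown, and 1.67, 0.355 and 0.703 CPM in control. Its log2 fold change against control was 1.57 ± 0.281 in the double knockdown and 7.35 ± 0.129 in the NAT10 knockdown (adjusted p = 0.000354 and 5.97e-18). Without control replicate 1, the highest of the control libraries, these were 2.37 and 8.15. MSTRG.6075, a match to a gag-pol protein of Drosophila ananassae, had 0.703, 0.934 and 1.20 CPM in the double knockdown, 7.67, 9.37 and 10.2 CPM in the NAT10 knockdown, and 0.279, 0 and 0.176 CPM in control. It was called higher than control in both knockdowns (log2 2.49 ± 0.513 and 5.74 ± 0.327, adjusted p = 0.000434 and 2.57e-14). With at most 5.3 counts in a control library the size of these differences is uncertain, and without control replicate 1 they were 3.21 and 6.46.

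At 2 further polyprotein loci the double knockdown overlapped control. MSTRG.6099 had 5.97, 5.66 and 4.56 CPM in the double knockdown, 104, 107 and 101 CPM in the NAT10 knockdown, and 6.35, 5.32 and 7.38 CPM in control. It was 16.2-fold higher in the NAT10 knockdown than in control (log2 4.02 ± 0.081, adjusted p = 3.49e-24), while the double knockdown had a log2 fold change of -0.25 ± 0.121 that did not pass (adjusted p = 0.126). Without control replicate 2 that difference passed (adjusted p = 0.0374). MSTRG.6017 averaged 2.76, 39.6 and 2.24 CPM in the double knockdown, the NAT10 knockdown and control, a 17.64-fold difference of the NAT10 knockdown from control (log2 4.14 ± 0.116, adjusted p = 5.05e-21).

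The other polyprotein loci that were tested, MSTRG.1906, MSTRG.1919 and MSTRG.1945, had smaller differences in the NAT10 knockdown against control. MSTRG.1906 had 72.1, 74.97 and 70.5 CPM in the double knockdown, 186, 175 and 186 CPM in the NAT10 knockdown, and 127, 126 and 130 CPM in control. The genotypes were separate, with the double knockdown lower than control (log2 -0.81 ± 0.039, adjusted p = 3.11e-15) and the NAT10 knockdown higher (log2 0.51 ± 0.036, adjusted p = 2.06e-12). MSTRG.1919 was higher than control in both, with log2 fold changes of 0.45 ± 0.049 in the double knockdown and 1.00 ± 0.048 in the NAT10 knockdown. MSTRG.1945 averaged 10.2, 13.8 and 10.04 CPM in the double knockdown, the NAT10 knockdown and control, and was called higher in the NAT10 knockdown than in control (log2 0.45 ± 0.103, adjusted p = 0.000467). Of the 7 polyprotein loci that were tested, 7 were called higher in the NAT10 knockdown than in control (32.5% of everything tested). In the double knockdown against control 3 were called higher and 1 lower (15.7% and 15.5% of everything tested). MSTRG.10478 and MSTRG.1920 were not tested, with at most 12.79 and 8.43 counts in any library.

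Among 7 loci annotated as pol, reverse transcriptase or RNase H with no element named in the hit, 6 were called higher and 1 lower in the NAT10 knockdown than in control (32.5% and 29.6% of everything tested). MSTRG.1864, the longest of them by the length that its counts and FPKM imply (10237 bases), had 24.5, 24.2 and 21.6 CPM in the double knockdown, 73.8, 70.2 and 70.0 CPM in the NAT10 knockdown, and 25.8, 25.8 and 24.8 CPM in control. It was higher in the NAT10 knockdown (log2 1.48 ± 0.058, adjusted p = 7.91e-18) and was not called in the double knockdown (log2 -0.12 ± 0.065, adjusted p = 0.159). MSTRG.1913 behaved otherwise, with 25.8, 27.6 and 25.5 CPM in the double knockdown, 26.4, 25.0 and 27.4 CPM in the NAT10 knockdown, and 11.8, 12.0 and 9.31 CPM in control. The knockdowns overlapped each other and both lay above control (log2 1.26 ± 0.087 and 1.26 ± 0.088). MSTRG.1850, annotated as RNase H, which removes the RNA strand from an RNA-DNA hybrid, averaged 0.390, 4.92 and 0.240 CPM in the double knockdown, the NAT10 knockdown and control. It was called higher in the NAT10 knockdown (log2 4.41 ± 0.609, adjusted p = 5.43e-05), with log2 fold changes of 3.77 without control replicate 1 and 5.04 without control replicate 2. With at most 6.08 counts in a control library and 14.1 in a double knockdown library, MSTRG.1850 passed the filter through the NAT10 knockdown. Its p-value is therefore a description. MSTRG.1884 averaged 5.21, 9.61 and 3.43 CPM in the same order and was called higher than control in both knockdowns (adjusted p = 0.0117 and 1.87e-08), the first call being lost without control replicate 3 (adjusted p = 0.09) or without double knockdown replicate 1 (adjusted p = 0.137). MSTRG.6102 averaged 6.01, 17.9 and 8.80 CPM in that order, lower than control in the double knockdown and higher in the NAT10 knockdown (log2 -0.54 ± 0.125 and 1.03 ± 0.109, adjusted p = 0.00149 and 5.57e-09).

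The locus called lower in this set, MSTRG.1851, also carries the symbol rl, which is the symbol of the MAP kinase gene rolled, so its reads may not all be of an element. It had 101, 98.1 and 103 CPM in the double knockdown, 74.9, 74.9 and 72.8 CPM in the NAT10 knockdown, and 96.3, 88.2 and 86.9 CPM in control. The NAT10 knockdown was below both other genotypes (log2 -0.29 ± 0.044 against control, adjusted p = 2.77e-06). The double knockdown was above control by a log2 fold change of 0.15 ± 0.042 (adjusted p = 0.0065), a call lost without control replicate 3 (adjusted p = 0.0551).

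Loci annotated as gag, with no element named in the hit, differed among themselves. MSTRG.8695 had 1.81, 2.42 and 1.70 CPM in the double knockdown, 13.0, 13.0 and 13.1 CPM in the NAT10 knockdown, and 21.5, 20.01 and 20.6 CPM in control, and it was lower than control in both knockdowns (log2 -3.39 ± 0.121 and -0.66 ± 0.089, adjusted p = 5.51e-18 and 3.66e-07). MSTRG.8691 had 12.5, 12.6 and 11.6 CPM in the double knockdown, 32.5, 31.5 and 32.0 CPM in the NAT10 knockdown, and 25.9, 22.9 and 24.0 CPM in control. Its double knockdown was lower than control (log2 -0.99 ± 0.077) and its NAT10 knockdown higher (0.40 ± 0.069), both without overlap. MSTRG.8692 was higher than control in the double knockdown (log2 0.87 ± 0.131, adjusted p = 8.28e-06), while its NAT10 knockdown was not called (0.32 ± 0.141, adjusted p = 0.0544). The NAT10 knockdown did pass with scaling by total counts (adjusted p = 0.0442), without control replicate 1 (adjusted p = 0.0128) or without NAT10 knockdown replicate 1 (adjusted p = 0.0466).

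Jockey, an element without LTRs, moved less than copia. Its main locus, MSTRG.8694, had 184, 185 and 183 CPM in the double knockdown, 254, 249 and 257 CPM in the NAT10 knockdown, and 162, 142 and 150.3 CPM in control. The genotypes were separate, with 1.21 times the control level in the double knockdown and 1.67 times in the NAT10 knockdown (log2 0.28 ± 0.036 and 0.74 ± 0.035, adjusted p = 7.25e-07 and 5.64e-16). MSTRG.8693 averaged 34.3 CPM in the double knockdown, 57.1 CPM in the NAT10 knockdown and 31.8 CPM in control, and only its rise in the NAT10 knockdown passed among the comparisons with control (log2 0.85 ± 0.067, adjusted p = 3.35e-11). The other jockey loci, MSTRG.1853 and MSTRG.4008, stayed below 7 CPM on average. MSTRG.1853 was called in no comparison. MSTRG.4008 averaged 4.12, 4.68 and 6.02 CPM in the double knockdown, the NAT10 knockdown and control, and was called lower than control in the double knockdown (log2 -0.55 ± 0.18, adjusted p = 0.0202), a call lost without control replicate 1 or 3 or without double knockdown replicate 1 or 2 (adjusted p = 0.0738 to 0.132). In the NAT10 knockdown it was not called (log2 -0.37 ± 0.179, adjusted p = 0.0757), but passed as lower without control replicate 2, NAT10 knockdown replicate 1 or double knockdown replicate 3 (adjusted p = 0.0371 to 0.0373).

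DNA transposon loci were fewer and mostly low. The strongest change was at MSTRG.5563, a transposase hit, with 3.87, 2.97 and 3.96 CPM in the double knockdown, 75.6, 71.6 and 68.8 CPM in the NAT10 knockdown, and 9.14, 7.31 and 8.61 CPM in control. It was 8.55-fold higher than control in the NAT10 knockdown (log2 3.10 ± 0.083, adjusted p = 1.73e-21) and lower than control in the double knockdown (log2 -1.22 ± 0.123, adjusted p = 1.26e-08). MSTRG.1750, a match to a protein derived from a Tigger transposon, had 66.3, 67.9 and 67.1 CPM in the double knockdown, 55.4, 56.3 and 53.8 CPM in the NAT10 knockdown, and 33.9, 38.7 and 34.9 CPM in control. Here the double knockdown was the highest genotype (log2 0.91 ± 0.051 against control, and 0.28 ± 0.048 against the NAT10 knockdown, adjusted p = 1.21e-13 and 1.4e-05).

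The remaining transposase loci had smaller differences or few counts. MSTRG.1839 was higher in the NAT10 knockdown than in control (log2 0.31 ± 0.069, adjusted p = 0.000654), and its double knockdown overlapped control (log2 0.02 ± 0.070, adjusted p = 0.896). MSTRG.1803 had 25.9, 51.8 and 0 counts in the double knockdown, 25.8, 77.8 and 0 counts in the NAT10 knockdown and 0 counts in the 3 control libraries, where 3 counts would be 0.165 to 0.212 CPM. It was called in no comparison, although DESeq2 called it higher in the NAT10 knockdown than in control (adjusted p = 0.0433). MSTRG.6101 averaged 2.70, 8.48 and 3.85 CPM in the double knockdown, the NAT10 knockdown and control, and was called higher in the NAT10 knockdown (log2 1.12 ± 0.158, adjusted p = 9.05e-07). Its call as lower in the double knockdown (log2 -0.53 ± 0.187, adjusted p = 0.0317) is lost with DESeq2 (adjusted p = 0.0517) and without control replicate 1 or 3 or double knockdown replicate 2 or 3 (adjusted p = 0.0763 to 0.212). MSTRG.2062 averaged 6.49, 9.88 and 5.23 CPM in the same order and was called higher in the NAT10 knockdown (log2 0.92 ± 0.136, adjusted p = 1.72e-06), and MSTRG.1863, at 9.65, 9.28 and 8.86 CPM, was called in no comparison. Of the 7 DNA transposon loci tested, 5 were called higher in the NAT10 knockdown than in control (32.5% of everything tested). In the double knockdown against control 1 was called higher and 2 lower (15.7% and 15.5% of everything tested).

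Several loci with a transposon-like symbol lay just outside the wording used to choose the 50, and 20 were found after their values had been seen. They have no test here, and their CPM were scaled by total counts without TMM factors. Of the 19 with at least 1 CPM in the NAT10 knockdown or control, the NAT10 knockdown mean was above control for 18 and at least 2 times control for 7. In the fit, 4521 of all 8487 entries tested had a positive log2 fold change, and 6.73% were called at least 2-fold higher. Among the 120 other assembled loci tested, the set from which these loci were picked, 76 had a positive change and 32 were called at least 2-fold higher. A ratio of means is not a call, so the 7 loci are not matched in measure to these called shares. Of the 20, MSTRG.10445 was the most abundant in the NAT10 knockdown, and averaged 151 CPM in the double knockdown, 1251 CPM in the NAT10 knockdown and 165 CPM in control. MSTRG.6256, the most abundant in the other genotypes, averaged 271, 346 and 266 CPM in the same order. MSTRG.6486 averaged 0.370 CPM in the double knockdown, 66.8 CPM in the NAT10 knockdown and 44.6 CPM in control, and MSTRG.6487 averaged 0, 14.5 and 14.1 CPM in the same order.

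How reads were shared between copies bears on every single-locus value. Of the 50 loci, 45 had an estimated count that was not a whole number in at least 1 library, and 78.3% to 85.4% of their values above 0 were fractional, against 11.2% to 12.2% for annotated genes. A fractional value arises where a read is divided between places it could have come from, so the split among copies of one element is an estimate and near-identical copies cannot be told apart. The BDGP6.54 annotation, which may not be the build used for these files, lists 39 copia insertions (32 of at least 4000 bases), 44 of opus, 29 of 17.6 and 96 of jockey, and none under the name blastopia. The sum over an element's loci is less exposed to that split than a single locus is. For copia the log2 ratio of the NAT10 knockdown to control was 3.26 for the sum, and 3.20 and 3.36 for the abundant loci. That sum is almost wholly made of those same loci, so its ratio had to lie between theirs and does not bear on the split. The labels and files do not say whether counting used the strand, so transcripts read from either strand of a locus cannot be told apart.

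Genes that silence transposons were measured from a list of 41 names, of which 39 matched a row and 36 were tested. Several piRNA genes were higher in the NAT10 knockdown. In the NAT10 knockdown against control 17 of the 36 were called higher and 7 lower (32.5% and 29.6% of everything tested), with a median log2 fold change of 0.13. Of the 15 tested in the somatic piRNA branch, 8 were called higher and 2 lower. Those 2 were mael and papi (log2 -0.63 ± 0.202 and -0.10 ± 0.038, adjusted p = 0.0091 and 0.0268). Of the 7 chromatin genes tested, 1 was called higher and 3 lower, and of the 4 siRNA genes 1 and 1. In the double knockdown 6 of the 36 were called higher and 5 lower than control (15.7% and 15.5% of everything tested). Against the NAT10 knockdown, 4 were called higher and 15 lower in the double knockdown (28.4% and 28.3% of everything tested).

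Piwi, the nuclear Argonaute of the piRNA pathway, had 3.92, 3.62 and 3.91 CPM in the double knockdown, 7.32, 7.07 and 7.72 CPM in the NAT10 knockdown, and 4.35, 3.26 and 3.51 CPM in control. The NAT10 knockdown was above the others, which overlapped (piwi log2 0.03 ± 0.160 for the double knockdown and 0.98 ± 0.147 for the NAT10 knockdown against control, adjusted p = 0.908 and 2.18e-06). The nuclear export factor family member nxf2, which acts with Piwi in silencing at the chromatin, averaged 30.9, 54.3 and 31.3 CPM in the double knockdown, the NAT10 knockdown and control. Its rise in the NAT10 knockdown passed (log2 0.80 ± 0.057, adjusted p = 3.16e-12). The Tudor domain gene vret, needed for piRNA production, was higher than control in both, by 0.23 ± 0.071 in the double knockdown and 0.83 ± 0.069 in the NAT10 knockdown on the log2 scale (adjusted p = 0.0122 and 6.32e-11), and the double knockdown's call is lost without control replicate 1 (adjusted p = 0.0555).

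Genes known mainly from the germline piRNA cycle were also detected. Of the 10 tested, 7 were called higher and 1 lower in the NAT10 knockdown than in control (32.5% and 29.6% of everything tested), and 3 were called higher in the double knockdown (15.7%). The Argonaute AGO3 averaged 4.93, 13.2 and 5.31 CPM in the double knockdown, the NAT10 knockdown and control, and was higher in the NAT10 knockdown (log2 1.32 ± 0.121, adjusted p = 4.53e-10). The helicase gene spn-E averaged 11.4, 23.6 and 9.94 CPM in the same order (log2 1.246 ± 0.083 in the NAT10 knockdown, adjusted p = 6.73e-13). The Tudor domain gene krimp was higher than control in both knockdowns, with log2 fold changes of 1.13 ± 0.131 in the double knockdown and 1.48 ± 0.128 in the NAT10 knockdown (adjusted p = 1.41e-07 and 1.3e-10). The gene called lower was qin, another Tudor domain gene, which averaged 8.74, 3.19 and 5.09 CPM in the double knockdown, the NAT10 knockdown and control, and which was higher than control in the double knockdown (log2 0.78 ± 0.132, adjusted p = 3.86e-05) and lower in the NAT10 knockdown (log2 -0.67 ± 0.158, adjusted p = 0.000643). The Argonaute aub averaged 0.767, 1.59 and 0.525 CPM in the same order and was called higher in the NAT10 knockdown (log2 1.57 ± 0.377, adjusted p = 0.000797). Among 7 germline markers, AGO3 and aub are these same genes, bgcn averaged 1.45, 1.74 and 1.73 CPM and was called in no comparison, and vas, nos, bam and rhi were each at or below 0.239 CPM on average in every genotype, too low to be tested.

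In the siRNA pathway, AGO2, the Argonaute that carries siRNAs, had 648, 661 and 633 CPM in the double knockdown, 835, 803 and 820 CPM in the NAT10 knockdown, and 733, 740 and 724 CPM in control. The genotypes were separate, and the differences from control were small (log2 -0.18 ± 0.026 in the double knockdown and 0.16 ± 0.026 in the NAT10 knockdown, adjusted p = 5.34e-06 and 5.38e-06). Dcr-2, which cuts double-stranded RNA into siRNAs, was slightly lower than control in both knockdowns (log2 -0.11 ± 0.030 and -0.07 ± 0.030, adjusted p = 0.00624 and 0.0369). In the NAT10 knockdown that call is lost with scaling by total counts (adjusted p = 0.0763), without control replicate 1 (adjusted p = 0.168) and without NAT10 knockdown replicate 3 (adjusted p = 0.0529).

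**Figure D4:**
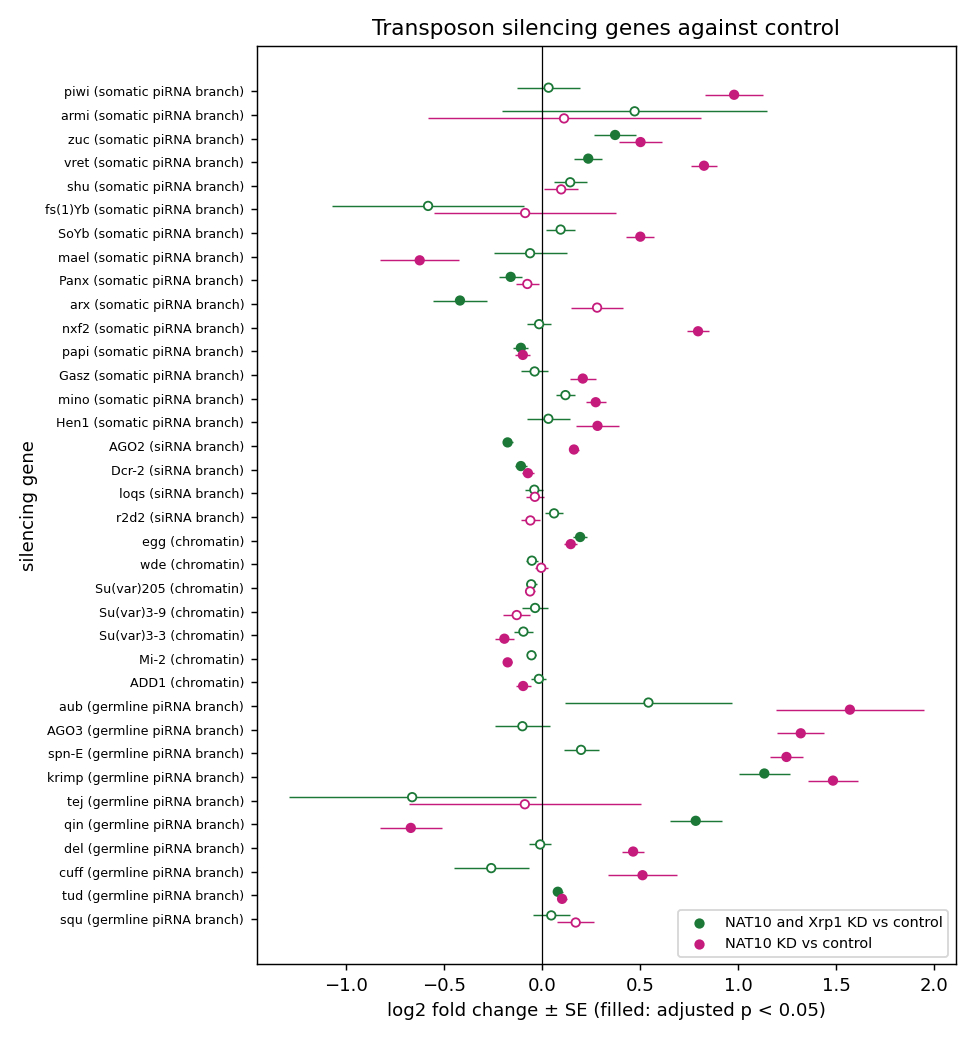
Log2 fold change ± SE against control (x axis) of the 36 tested silencing genes (rows, with their branch) in the double knockdown and in the NAT10 knockdown, with filled points for calls at an adjusted p below 0.05. In the NAT10 knockdown 17 genes were called higher and 7 lower, and in the double knockdown 6 and 5.

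Markers of the cells that whole-disc dissections can hold differed between the genotypes. Summed CPM of 5 wing disc genes (nub, vg, ap, Dll and shg) ran from 2116 to 2156 in the double knockdown, 1710 to 1740 in the NAT10 knockdown and 2206 to 2292 in control. Fat body markers, 6 of which were called higher than control in the double knockdown (15.7% of everything tested) and 5 of which were in the NAT10 knockdown (32.5%), summed to 1266 to 1306 CPM, 61.8 to 67.8 CPM and 12.4 to 15.5 CPM in the same order of genotypes. Germline markers summed to 6.59 to 8.47 CPM, 16.1 to 17.97 CPM and 7.26 to 8.53 CPM, and most of that sum was AGO3, which is itself on the silencing list. Of 5 heat shock genes, 4 were called higher and 1 lower in the double knockdown than in control, and 2 higher and 3 lower in the NAT10 knockdown, where the shares of everything tested were 15.7% and 15.5%, and 32.5% and 29.6%. Hemocyte markers summed to 13.99 to 15.7, 14.1 to 16.3 and 23.6 to 25.3 CPM, and muscle markers to 40.9 to 43.7, 40.1 to 45.2 and 68.1 to 69.3 CPM. Of the hemocyte markers, PPO1 averaged 1.08, 1.05 and 4.53 CPM and PPO2 1.83, 1.32 and 6.55 CPM in that order. Hml, eater and Pxn were not called against control, and NimC1 was called lower only in the NAT10 knockdown. Of the muscle markers, Mlc2 was called higher than control in the NAT10 knockdown, while Mhc, Act57B, up and TpnC73F were called lower. Neuron and glia markers summed to 85.9 to 87.6, 83.2 to 88.1 and 81.4 to 91.3 CPM, and trachea markers to 1032 to 1054, 1041 to 1074 and 982 to 1003 CPM. Most of the neuron and glia sum was elav, which averaged 86.0, 85.4 and 83.7 CPM in that order. Of the trachea markers, trh and vvl were called lower and Gasp and serp higher in the NAT10 knockdown than in control. The part of these differences in the transposon levels was not tested.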

How the data were processed

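The authors deposited estimated counts and FPKM per gene and locus for the 9 libraries. The submitters' processing notes name RSEM, StringTie 1.3.1, HISAT2 2.1.0 and fastp 0.18.0 with no role for each, and the sources used here name no genome build. Log2 fold changes and p-values with FDR were also deposited by the authors, from a test that the sources used here leave unnamed, and were not used for any value above. Some small differences called here did not reach an FDR below 0.05 in that test. Examples are MSTRG.1881 against control (FDR 0.548 in the double and 0.455 in the NAT10 knockdown), MSTRG.1851 in the NAT10 knockdown (0.276) and blastopia in the double knockdown (0.479). It did pass MSTRG.6061 in the NAT10 knockdown (FDR 0.00612), which was not called here. Estimated counts were rounded and fitted with edgeR 4.0.16 under R 4.3.3, with TMM scaling, filterByExpr and the robust quasi-likelihood test on genotype alone, which kept 8487 of 14168 entries. Biological variation (edgeR's common coefficient) came to 3.61%, and the fit was tested on simulated data. Lengths were derived from counts and FPKM. No columns of other series were present. Figures were made in Python with pandas and matplotlib.

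The loci and gene lists were chosen with earlier results of these data known. Loci were named where they had a mean of at least 5 CPM in a genotype or a call of at least 2-fold, limited to the 25 with the highest mean. The rest of the 50, and the silencing genes qin and aub, are given besides that rule, chosen after their values were seen. Silencing genes were named by the smallest adjusted p, up to 6, with piwi, AGO2 and Dcr-2 given whatever theirs. The silencing list names flam and His1 were not analysed here. Replicate numbers did not pair libraries, as the labels give no shared day or batch, so no pairing was used. DESeq2 1.42.0, other scalings, other filters, single libraries left out and a replicate block were the alternatives tried.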

Additional observations from a re-analysis of the deposited data

How the results depend on the processing

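Over the alternatives run, 132 of 171 single log2 fold changes kept their direction and call, while 10 lost a call and 11 gained one in at least 1 setting. With a 2-fold limit, the loci called higher numbered 9 in the double knockdown against control and 0 against the NAT10 knockdown, those called lower 2 in the double knockdown and 0 in the NAT10 knockdown against control. Under that limit the silencing genes called higher numbered 1 in the double over the NAT10 knockdown, 1 against control and 4 in the NAT10 knockdown, and those called lower 3, 0 and 0 in that order. At an adjusted p below 0.01, silencing genes called higher in the double over the NAT10 knockdown numbered 2, and those called lower 2 in the double knockdown and 4 in the NAT10 knockdown against control. With DESeq2 or total-count scaling 3 silencing genes were lower in the double knockdown than in control, and with total counts 4 in the NAT10 knockdown. With single libraries left out, loci higher and lower numbered 4 to 5 and 33 to 34 in the double over the NAT10 knockdown, 34 to 36 and 3 to 5 in the NAT10 knockdown against control (5 without control replicate 2), and 15 to 18 and 8 to 12 in the double knockdown against control. The same ranges for silencing genes were 2 to 6 (2 without double knockdown replicate 1 or 2) and 12 to 15, 16 to 17 and 5 to 8, and 4 to 7 and 3 to 7 (3 without control replicate 3 or double knockdown replicate 3). Summed as FPKM in place of CPM, log2 ratios of the double knockdown to the NAT10 knockdown were -1.16 for 17.6, -2.58 for all 50 loci, -0.67 for gag, -0.63 for pol or reverse transcriptase and -2.65 for polyproteins. Those of the NAT10 knockdown to control were 1.02 for 17.6, 0.85 for pol or reverse transcriptase and 2.19 for polyproteins, and those of the double knockdown to control -0.14, 0.32 (all loci), -0.61 (gag) and -0.46 (polyproteins). FPKM weighs loci by length, which CPM does not. The direction changed at 18 differences, each of them uncalled in the fit reported above. With single libraries left out, those of the double knockdown against control ran from -0.0697 to 0.0817 for MSTRG.1839, -0.4501 to 0.4025 for MSTRG.1882, -0.1593 to 1.3678 for MSTRG.1850, -4.5833 to 3.4615 for MSTRG.10516, -0.082 to 0.1058 for MSTRG.1945, -0.0472 to 0.4617 for MSTRG.10483, -0.7524 to 0.3557 for MSTRG.6120, -0.255 to 0.14 for MSTRG.1853, -0.0345 to 0.0079 for nxf2 and -0.0442 to 0.1683 for piwi. Those between the knockdowns ran from -1.6062 to 0.8961 for MSTRG.1803, -0.0012 to 0.1854 for MSTRG.1863, -0.0527 to 0.124 for MSTRG.2061, -0.2091 to 0.5584 for MSTRG.1853, -0.0369 to 0.0461 for MSTRG.1913 and -0.0371 to 0.001 for Dcr-2. Those of the NAT10 knockdown against control ran from -0.0575 to 0.129 for MSTRG.1863 and -0.5631 to 0.204 for MSTRG.1853. Other settings gave 0.0082 for nxf2 and 0.0195 for MSTRG.1853 against control (total counts), 0.0021 for MSTRG.1853 (only both genotypes fitted), and for MSTRG.1913 between the knockdowns 0.0105 (stricter filter), 0.0102 (DESeq2), 0.0006 (no filter), 0.0099 (RLE) and 0.011 (total counts). The cause was not tested. With the replicate number as a block, 35 loci were higher and 3 lower in the NAT10 knockdown against control, 18 and 11 in the double knockdown against control and 4 and 34 between the knockdowns. Deviations of same-numbered libraries correlated from -0.032 to 0.071, and the block changed no count by over 1.5 times. It called MSTRG.1803 higher than control in both knockdowns (adjusted p = 1.57e-06 in the double knockdown and 4.34e-08 in the NAT10 knockdown).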
